A study of Mus musculus with 13 samples.

Results

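Kupffer cells, the resident macrophages of the liver, were compared directly with hepatic stellate cells (HSC), the pericyte-like cells of the space between hepatocytes and sinusoids, after 1 day of culture. The comparison rests on 5 of the 13 arrays of the series, 3 of freshly isolated Kupffer cells and 2 of HSC kept for 1 day in DMEM with 10% fetal bovine serum, chosen by their labels. All cells came from naive C57BL/6 mice aged 6 to 10 weeks. RNA was labelled as biotinylated cRNA and hybridised to an Affymetrix mouse gene array, and each value is a probe-set intensity on a linear scale. Arrays of freshly isolated hepatocytes (3) and liver sinusoidal endothelial cells (LSEC, 3) entered the estimate of the spread, and HSC cultured for 7 days (1 array) and 14 days (1 array) are given beside the pair. The titles call the arrays of the pair biological replicates, but whether they came from separate animals was not given. The p-values measure the spread between arrays, pooled over Kupffer cells, 1-day HSC, hepatocytes and LSEC. Scatter among hepatocyte or LSEC arrays therefore widens the SE of the pair, and close values among them narrow it. Where the HSC arrays differ more than the others do, the SE understates their spread. The number of arrays limits the precision. Kupffer cells were fresh and HSC were cultured, so cell type and culture cannot be told apart. In such bulk samples fewer cells of a type and less RNA per cell cannot be told apart either.

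Kupffer cells line the sinusoids, depend on the growth factor CSF1, and clear particles, bacterial products, ageing red cells and cholesterol-rich debris from portal blood. HSC store retinyl esters in the healthy liver, and on plastic in serum they turn into contractile, matrix-producing cells that resemble the myofibroblasts of liver fibrosis. The cells lie side by side along the sinusoid and signal to each other through growth factors, chemokines and matrix.

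Replicate arrays were close. Over all probe sets on the log2 scale, the 3 Kupffer arrays correlated at 0.9935 to 0.9956 and the 2 HSC arrays at 0.9938, while arrays of the different cells correlated at 0.834 to 0.847. Probe sets are not independent replicates. The labels held against their markers. Clec4f, a lectin restricted to Kupffer cells, read 10218, 10149 and 10459 on the Kupffer arrays and 212 and 245 on the HSC arrays. Cd5l, a secreted macrophage scavenger protein, read 12687, 11547 and 11697 against 223 and 359. In the other direction Acta2, the smooth muscle actin of activated HSC, read 219, 223 and 206 on the Kupffer arrays and 7461 and 9745 on the HSC arrays. Cxcl12, a chemokine of stromal cells, read 176, 147 and 136 against 8069 and 7495. For each of these 4 markers the groups were far apart. Lrat, the enzyme that makes retinyl esters in HSC, did not separate the groups and read 257 and 353 in HSC and 323, 195 and 183 in Kupffer cells (log2 difference -0.31, SE 0.162, adjusted p = 0.11), and Gfap lay below the filter on low intensities.

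After 1 probe set was taken per gene and genes of low intensity were left out, 12081 genes were tested. Differences are given as Kupffer minus HSC on the log2(intensity + 83) scale, so that negative values stand for genes higher in HSC. A gene counted as called with a log2 difference of 1 or more in size and a limma p, adjusted by Benjamini-Hochberg, under 0.05. By this rule 1409 genes (11.7% of those tested) were higher in Kupffer cells and 1558 (12.9%) were higher in 1-day HSC. At a log2 difference of at least 2 the counts were 546 and 441, and at 4 or more they were 45 and 56. The differences were balanced over the whole array, with a median of -0.02 over all tested genes and a median SE of 0.110. In each called gene every array of the higher group lay above every array of the other. Over all tested genes all 3 Kupffer arrays lay above both HSC arrays in 4670 (38.7%), and both HSC arrays lay above all 3 Kupffer arrays in 5175 (42.8%), so groups that did not overlap were common.

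**Figure D1:**
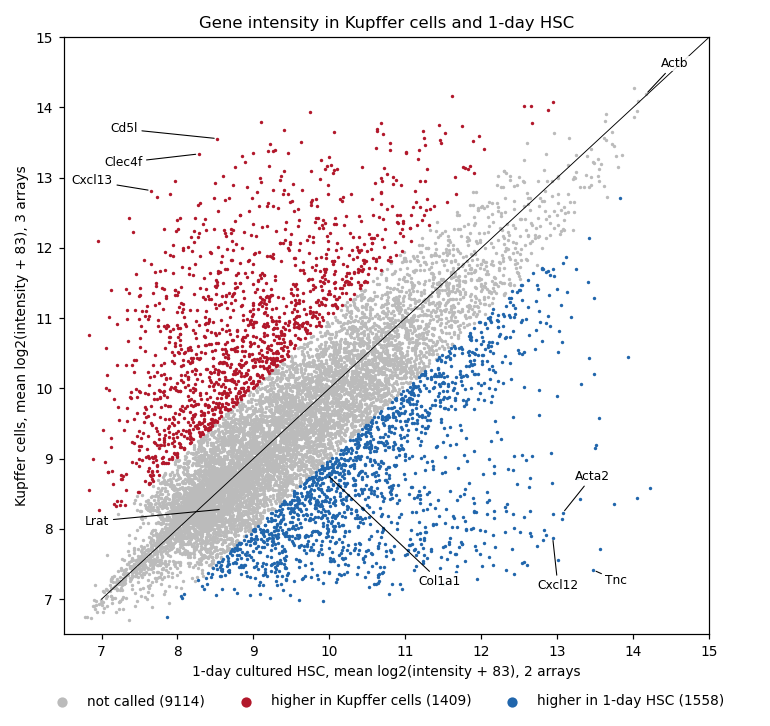
Mean log2(intensity + 83) of each of the 12081 tested genes in 1-day HSC (horizontal axis, 2 arrays) and Kupffer cells (vertical axis, 3 arrays), with the line of equal values. The 1409 genes higher in Kupffer cells (red) and the 1558 higher in HSC (blue) lie on both sides of the uncalled genes (grey), with Actb on the line and Lrat close to it.

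The widest differences toward Kupffer cells lay in a B cell chemokine, scavenger and adhesion receptors and purinergic and Fc receptors. Cxcl13, which attracts B cells, read 6525, 8098 and 6858 on the Kupffer arrays and 112 and 124 on the HSC arrays (log2 difference 5.16, SE 0.23, adjusted p = 1.2e-09). Adgre4, an adhesion receptor of the F4/80 family, read 4135, 4418 and 4384 against 40 and 41.5 (log2 difference 5.15, SE 0.078, adjusted p = 1.7e-12). Cd163, the receptor for haemoglobin bound to haptoglobin, read 5359, 5940.2 and 4963 against 80.8 and 82.2 (log2 difference 5.06, SE 0.132, adjusted p = 1.7e-11). On the HSC arrays these 3 genes stayed near the low end of the scale, so the constant added before taking logs makes their differences understate the fold. P2ry13, a receptor for ADP, had a log2 difference of 4.99, the IgG receptor gene Fcgr4 4.99 and C6, a component of the complement membrane attack complex, 4.87. Bank1, an adaptor of B cells, followed at 4.81 (other B cell markers were also higher on the Kupffer arrays, as given further on, and their part in this value was not tested), the class II chain gene H2-Aa at 4.69, the prostaglandin-degrading enzyme gene Hpgd at 4.46 and the proton-sensing receptor gene Gpr65 at 4.45. Of these genes C6 was also read in hepatocytes, at a mean of 2634, as was Hpgd at 1942.

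The widest differences toward HSC lay in matricellular proteins, YAP targets and a protease inhibitor. Tnc, the matrix glycoprotein tenascin-C, read 10915 and 11697 on the HSC arrays and 93.2, 77.5 and 92.4 on the Kupffer arrays (log2 difference -6.06, SE 0.254, adjusted p = 7e-10). Ankrd1, a nuclear protein induced by stretch, read 11897 and 12128 against 107, 129 and 148 (log2 difference -5.84, SE 0.102, adjusted p = 2.6e-12). Ccn2, the connective tissue growth factor, read 18754 and 19321 against 297, 279 and 332 (log2 difference -5.63, SE 0.186, adjusted p = 8.7e-11), and its LSEC mean of 9198 was also high. Thbs1, a matricellular activator of latent TGF-beta, read 16682 and 17142 against 334, 215 and 255, a log2 difference of -5.61. Next were the asparagine synthetase gene Asns at -5.45, the metalloproteinase inhibitor gene Timp3 at -5.39, Fstl1 at -5.11, the plasminogen activator inhibitor gene Serpinb2 at -5.07 and Cxcl12 at -5.06. The glutathione peroxidase gene Gpx8 at -5.03, the Slit receptor gene Robo2 at -5.03 and the integrin activator gene Fermt2 at -4.97 completed the 12 largest. Some of them were also high in other liver cells. The LSEC mean was 6168 for Asns, 6510 for Timp3 and 2737 for Fermt2. The hepatocyte mean was 2643 for Asns and 3102 for Fermt2. Serpinb2, Cxcl12 and Robo2 were low in both of these cell types. In longer culture 3 of these 12 HSC genes were lower than at day 1 by the same rule. Serpinb2 read 959.5 at day 7 and 394 at day 14, Cxcl12 read 1420.4 at day 7 and 878 at day 14, and Robo2 read 1051 at day 7 and 352 at day 14.

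**Figure D2:**
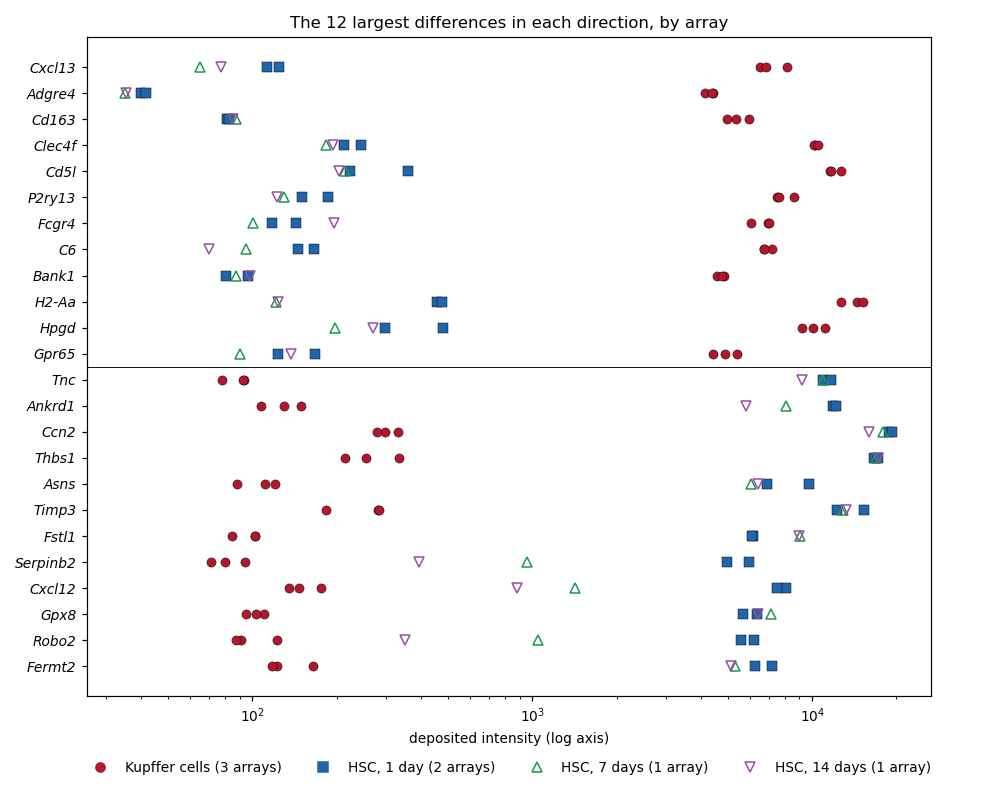
Deposited intensity on a log axis of the 12 genes with the largest difference toward Kupffer cells (upper block) and the 12 toward 1-day HSC (lower block), with a point for each array. Kupffer arrays (circles) and 1-day HSC arrays (squares) do not overlap for any of the 24 genes. In the lower block the 7-day and 14-day arrays (open triangles) of Serpinb2, Cxcl12 and Robo2 lie between both groups. Those of others, such as Ankrd1, Ccn2, Asns and Fermt2, also lie between the groups but nearer to the 1-day HSC arrays.

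Promoters of the called genes were searched for short motifs, and the sequences printed here are those of the gene with the largest difference in each direction and of the marker Acta2. Promoters were taken from RefSeq (GRCm38.p6) as 250 bases before to 50 bases after the start site, and 9705 of the 12081 tested genes matched. Capitals mark matches, on either strand, of the TEAD motif, the TATA box or the interferon response element, whose letters are given with their shares after the sequences. The promoter of Cxcl13 lies at chr5:95956689-95956988 on the plus strand, that of Tnc, the first of 2 listed, at chr4:64046966-64047265 on the minus strand, and that of Acta2 at chr19:34255324-34255623 on the minus strand.
Cxcl13: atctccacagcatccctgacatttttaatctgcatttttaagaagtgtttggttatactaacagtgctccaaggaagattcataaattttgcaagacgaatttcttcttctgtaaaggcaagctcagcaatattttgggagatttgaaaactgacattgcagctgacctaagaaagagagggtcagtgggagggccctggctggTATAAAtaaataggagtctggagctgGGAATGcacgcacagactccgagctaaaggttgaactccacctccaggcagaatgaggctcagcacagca
Tnc: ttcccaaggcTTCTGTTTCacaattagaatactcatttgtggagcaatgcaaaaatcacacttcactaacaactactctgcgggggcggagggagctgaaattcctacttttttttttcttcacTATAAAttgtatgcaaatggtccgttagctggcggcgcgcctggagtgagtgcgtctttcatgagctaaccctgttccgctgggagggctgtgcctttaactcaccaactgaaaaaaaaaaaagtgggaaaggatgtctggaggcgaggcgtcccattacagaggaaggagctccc
Acta2: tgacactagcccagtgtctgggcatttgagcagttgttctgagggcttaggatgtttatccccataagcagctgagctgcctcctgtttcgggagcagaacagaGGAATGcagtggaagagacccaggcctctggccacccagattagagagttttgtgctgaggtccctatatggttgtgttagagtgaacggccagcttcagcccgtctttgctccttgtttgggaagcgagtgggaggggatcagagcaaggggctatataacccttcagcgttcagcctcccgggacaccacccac
Cxcl13 held a TATA box and a TEAD motif, Tnc a TATA box and an interferon response element on its minus strand, and Acta2 a TEAD motif. The promoters of Clec4f, Cd5l and Cxcl12 held none of the 6 motifs searched. For these promoters and the printed ones, a motif not named says only that its exact letters were not in the window. Near matches, which the Acta2 promoter also holds, were not counted.

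Among promoters of the 1146 genes higher in Kupffer cells, GAGGAAGT, the motif of PU.1 and related ETS factors, was found in 6.89%, against 2.3% of the 1219 higher in HSC and 2.96% of all 9705. The interferon response element, GAAANNGAA, was found in 12%, 5.66% and 7.05% in the same order. The CArG box, CCWWWWWWGG with W for A or T, is the site of serum response factor. It was found in 1.22% of the Kupffer promoters, 2.38% of the HSC promoters and 1.4% of all. For the TEAD motif GGAATG the shares were 10.8%, 13.5% and 11.9%. For the AP-1 motif TGANTCA they were 6.72%, 6.81% and 5.29%. For the TATA box, TATAAA, they were 9.16%, 9.02% and 7.64%. Both strands were searched, and matches of different motifs overlapped in 18 promoters, most often the CArG box with the TATA box, the TEAD motif with AP-1 and the TEAD motif with the interferon element, in 5 promoters each. A match is a description of the sequence and not evidence of binding. To show what the matches look like, windows of 30 bases follow for the 5 genes with the largest difference that held the PU.1 motif, in capitals, among genes higher in Kupffer cells. They were chosen after their values were seen.
Adgre4: gaacaagataagcagtggtgcACTTCCTCc
Fcgr4: taaggctatttACTTCCTCtcttctagtca
Pld4: ctcagaacaaaGAGGAAGTgaatggaaggg
Abcg3: cactgcctgctACTTCCTCtgctctcttcg
C1qc: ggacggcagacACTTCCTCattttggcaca
Pld4, a lysosomal nuclease, had a log2 difference of 4.42, the transporter gene Abcg3 4.28 and the complement chain gene C1qc 4.19. The windows lie at chr17:55750004-55750033, chr1:171018891-171018920, chr12:112760653-112760682, chr5:104982691-104982720 and chr4:136893091-136893120, each read along the strand of its gene.

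The same choice for the CArG box among genes higher in HSC gave 5 further windows, with the box in capitals.
Fermt2: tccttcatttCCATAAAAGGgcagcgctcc
Fhl1: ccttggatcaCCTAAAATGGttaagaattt
Vcl: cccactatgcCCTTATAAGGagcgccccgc
Rhoj: gcccactgatCCTAATATGGaatgcagcag
Myl9: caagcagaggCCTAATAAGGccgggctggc
Vcl, which encodes the focal adhesion protein vinculin, had a log2 difference of -4.03, the LIM protein gene Fhl1 -4.21, the small GTPase gene Rhoj -3.69 and the myosin light chain gene Myl9 -3.15. These windows lie at chr14:45530250-45530279, chrX:56779571-56779600, chr14:20929161-20929190, chr12:75308306-75308335 and chr2:156775293-156775322, each read along the strand of its gene.

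Genes were then read in 44 lists by function, each described by its calls and its median beside the shares of 11.7% and 12.9% and the median of -0.02 over all tested genes. A gene that is high in 1 cell type alone passed the filter through that cell type, so the counts describe the tested members and do not test the list.

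**Figure D3:**
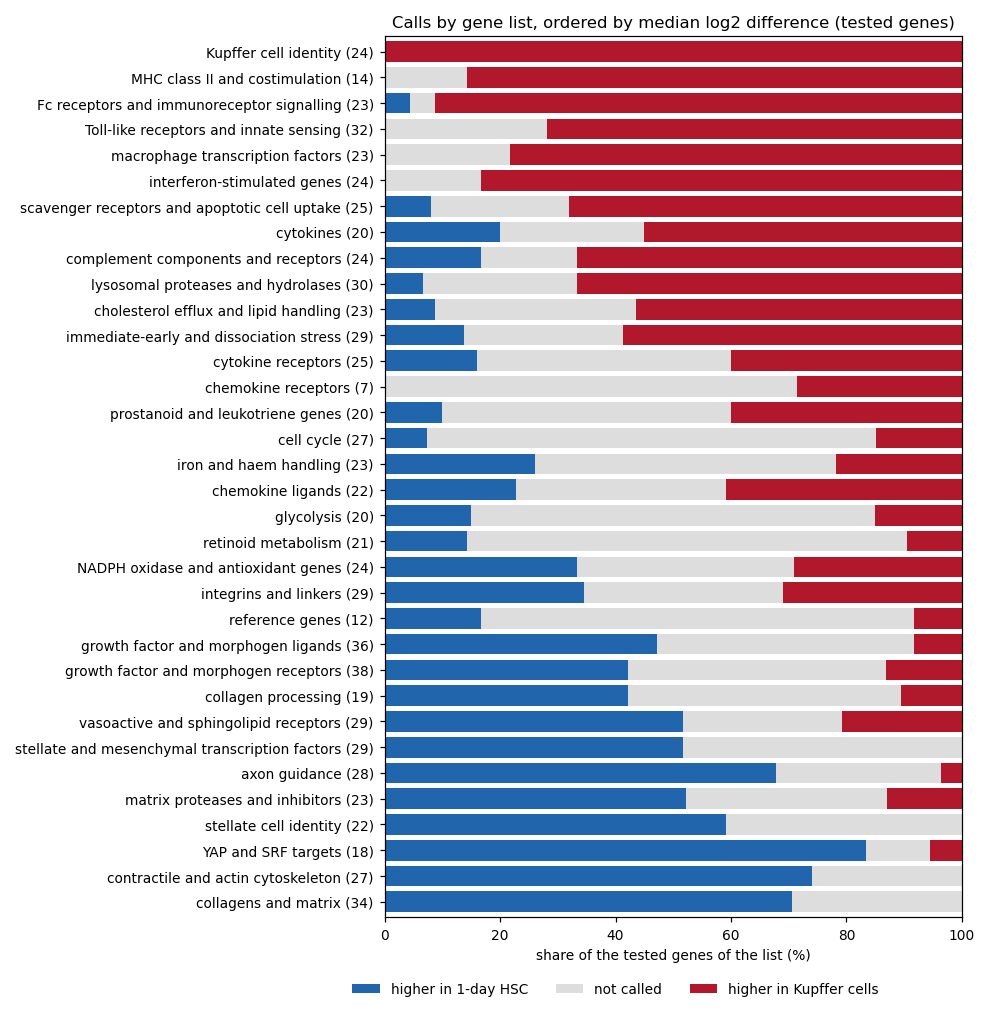
Share of the tested genes of each functional list (number in brackets) that was higher in Kupffer cells (red), higher in 1-day HSC (blue) or not called (grey), ordered by the median log2 difference. All 24 tested genes of the Kupffer identity list were higher in Kupffer cells, and 24 of the 34 tested collagen and matrix genes were higher in HSC with none the other way.

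All 24 genes of the Kupffer identity list were higher in Kupffer cells, with a median log2 difference of 3.49. Timd4, the phosphatidylserine receptor of resident macrophages, read 3248, 3598 and 3419 on the Kupffer arrays and 118 and 116 on the HSC arrays. Adgre1, which encodes F4/80, read 8997, 9056 and 9289 against 388 and 662, and Vsig4, the complement receptor of Kupffer cells, read 9619, 12054 and 10342 against 417 and 673. The leukocyte gene Ptprc read 5183, 5793 and 5824 against 308 and 438. Marco, a scavenger receptor for bacteria, varied most among the Kupffer arrays within this list, at 2511, 953 and 767, with array 1 far above the other two. The summed intensity of the list was 196804 to 200260 on the Kupffer arrays and 15970 and 20541 on the HSC arrays. It was 11317 and 18143 on the 7-day and 14-day HSC arrays and 15655 in hepatocytes, near the level of 1-day HSC. Single genes differed from the sum. Adgre1, Vsig4 and Ptprc lay above their hepatocyte and LSEC means on both 1-day HSC arrays. Those means were 111 and 112, 132 and 99.7, and 138 and 153. Timd4 and Marco did not lie above both means. The part of macrophages in the values of the HSC arrays was not tested. Cd68, a lysosomal glycoprotein of macrophages, read 10422, 10404 and 10563 in Kupffer cells and 1796 and 2196 in HSC, with a hepatocyte mean of 5183.

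Of 23 tested macrophage transcription factors 18 were higher in Kupffer cells and none in HSC, with a median of 1.93. Spi1, which encodes PU.1, the factor that specifies macrophages, read 8722, 8305 and 8968 against 533 and 655 (log2 difference 3.70, SE 0.129, adjusted p = 1.4e-10). Nr1h3, which encodes LXR-alpha, the oxysterol receptor of the Kupffer cell programme, read 5191, 5020.4 and 5105 against 225 and 253 (log2 difference 4.01, SE 0.114, adjusted p = 2.9e-11). Spic, a factor of iron-recycling macrophages, read 5153, 4376 and 5097 against 213 and 345, and the lymphoid and myeloid factor gene Ikzf1 had a difference of 3.44. These factors were separated from HSC by wide gaps on every array. Cebpb at 0.97 and Bhlhe40 at 0.65 fell short of the minimum difference, and Runx1 leaned to HSC at -0.71 without being called.

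Receptors for uptake and opsonins followed. Among scavenger and apoptotic cell receptors 17 of 25 were higher in Kupffer cells and 2 in HSC (median 1.72), and the mannose receptor gene Mrc1 read 7372, 8089 and 7632 against 251 and 303, while its LSEC mean was 2106. Msr1, the macrophage scavenger receptor, had a difference of 3.38. The exceptions were Olr1, the receptor for oxidised LDL, at -3.15 and Mfge8, a bridge between apoptotic cells and integrins, at -3.27. Mfge8 read 2817 and 2593 on the HSC arrays and 213, 194 and 212 on the Kupffer arrays, and its LSEC mean was 2646. The TAM receptor gene Mertk was higher in Kupffer cells (2.29), whereas its relative Axl was read highly in both cells, at 8369, 8309 and 7930.5 in Kupffer cells and 5714 and 5678 in HSC, and was not called (0.52). Cd36, a fatty acid and thrombospondin receptor, read 1575, 1569.9 and 2718 against 492 and 1121, a log2 difference of 1.25 that passed at an adjusted p of 0.0496. It lost the call in 10 alternatives, with adjusted p between 0.0505 and 0.36. These were the fits that left out 1 array other than HSC replicate 2, both other pseudocounts, no filter, the mean of probe sets, the other variance model and the replicate block.

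Complement genes went both ways. Of 24 tested, 16 were higher in Kupffer cells and 4 in HSC (median 1.48). The C1q chain genes C1qa and C1qc, which start the classical pathway, had differences of 4.37 and 4.19, and C1qc read 15467, 15571 and 15828 against 647 and 929. HSC instead were higher for Serping1, the inhibitor of the C1 proteases, which read 2886 and 3444 against 148, 72.7 and 139.9 (log2 difference -4.01, SE 0.159, adjusted p = 4.3e-10). Masp1, a protease of the lectin pathway, was higher in HSC as well at -3.70, as were Clu at -1.96 and C1s1 at -1.17 (-0.71 with the pooled median as pseudocount, not called). The hepatocyte mean was 9437 for Serping1 and 6942 for Clu, and hepatocyte markers were higher on the 1-day HSC arrays too. Their part in these differences was not tested. Serping1 read 6028 at day 7 and 3059.5 at day 14 in longer culture.

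Fc receptors and their signalling chain were higher in Kupffer cells for 21 of 23 genes (median 2.95), including the inhibitory receptor gene Pirb at 3.56, the exchange factor gene Vav1 at 3.55, the lipase gene Plcg2 at 2.97 and the phosphatase gene Ptpn6 at 2.91. The 1 gene higher in HSC was Fcgr2b, the inhibitory IgG receptor, which read 2066 and 2132 on the HSC arrays and 888, 783 and 593 on the Kupffer arrays (log2 difference -1.40, SE 0.169, adjusted p = 1.2e-05). Its LSEC mean was 8734, and it read 184 at day 7 and 383 at day 14 in longer HSC culture. Endothelial markers lay higher on the day 1 HSC arrays too, as given further on, and their part in this difference was not tested.

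Innate sensors were higher in Kupffer cells for 23 of 32 genes and in HSC for none (median 2.06). The inflammasome sensor gene Nlrp3 read 3064, 3458 and 4224 against 94.7 and 118, and Ly86 and Cd180, which encode an LPS co-receptor pair, had differences of 4.26 and 3.62. Endosomal Tlr7, a sensor of single-stranded RNA, had 3.59, and Tlr2, the lipoprotein receptor, 2.64. The gene of the downstream adaptor, Myd88, was read at similar intensity in both cells without a call, at 3058, 3103 and 3227 in Kupffer cells and 2613 and 2808 in HSC (log2 difference 0.20, SE 0.14, adjusted p = 0.22). Ly96, the partner of TLR4, was high in both at 5528, 6125 and 6429.9 and 3969.7 and 3794 and was not called (0.62).

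Class II presentation and costimulation genes were higher in Kupffer cells for 12 of 14 (median 3.06). H2-Ab1 read 8416, 10080.3 and 10152 against 404 and 379.8, and the costimulatory ligand gene Cd86 read 4630.0, 5184 and 6266 against 140.1 and 208 (log2 difference 4.41, SE 0.151, adjusted p = 1.2e-10). Cd74, the invariant chain, read 11735, 14010.4 and 13853 in Kupffer cells and still 1486 and 1505 on the 1-day HSC arrays. In longer culture it read 72.6 at day 7 and 68.9 at day 14. The part of leukocytes in these day 1 values was not tested. Icosl and Cd40, with differences of 0.88 and 0.75, were not called.

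Lysosomal genes were higher in Kupffer cells for 20 of 30 (median 1.43), led by the tartrate-resistant phosphatase gene Acp5 at 3.45, the class II processing protease gene Ctss at 3.37 and Ctsh at 3.35. Ctsk, a collagen-degrading cathepsin, was the opposite and read 1076 and 1487 in HSC and 171, 181 and 273 in Kupffer cells (-2.23). The tetraspanin gene Cd63 was higher in HSC as well (-3.29). The membrane protein genes Lamp1 at 0.80 and Lamp2 at 0.45 were not called.

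Cholesterol and lipid genes were higher in Kupffer cells for 13 of 23 (median 1.22), including the transporter gene Abca9 at 3.82, the phospholipid transfer protein gene Pltp at 2.70 and Apoc1 at 2.92. Pltp read 12125, 11136 and 11114 against 1648 and 1737. In HSC Ch25h, which makes an oxysterol that suppresses cholesterol synthesis, was higher (529 and 679 against 134, 115 and 70.9, log2 difference -1.86).

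Iron genes went both ways. The exporter gene Slc40a1, which encodes ferroportin, read 12639.6, 12712 and 13288 in Kupffer cells and 1194 and 1889 in HSC (log2 difference 3.03, SE 0.182, adjusted p = 1.9e-08). The uptake genes Tfrc, the transferrin receptor, and Slc39a14, a zinc and iron importer, were higher in HSC at -1.65 and -1.76. The ferritin genes of iron storage were read highly in both cells and not called, Fth1 at 15055, 14389 and 15008 against 17036 and 15796 (-0.15) and Ftl1 at 14979, 15079.8 and 15555 against 12952 and 12493 (0.26). Hmox1, the haem-degrading enzyme, was not called either, at 8958, 8285 and 8417 and 9201 and 10051 (log2 difference -0.17, SE 0.157, adjusted p = 0.37). Of 23 iron genes 5 were higher in Kupffer cells and 6 in HSC, with a median of 0.26.

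Inflammatory mediators were divided between the cells. Of 20 tested cytokines 11 were higher in Kupffer cells and 4 in HSC (median 1.52). Tnf read 2846, 4754 and 6576 in Kupffer cells and 229.8 and 222 in HSC, and the interleukin genes Il1a and Il1b read 7197, 8609 and 8427 against 439.8 and 481 and 3755, 2559.7 and 3795 against 137 and 239.6. Il10, an anti-inflammatory cytokine, read 1608, 1521 and 1823 against 31.5 and 31.2 (log2 difference 3.92, SE 0.092, adjusted p = 9.2e-12). HSC were higher for Mif, Il11 and Il33 at -1.65, -1.69 and -2.14. The mean of Mif was 6842 in 1-day HSC, 6070 in hepatocytes and 6238 in LSEC, so Kupffer cells stood apart as low. HSC were also higher for the macrophage growth factor gene Csf1, which read 8255 and 8705 against 216, 191 and 191 (log2 difference -4.92, SE 0.121, adjusted p = 1.3e-11). The matching receptor Csf1r was on the other cell and read 11428, 11988 and 11274 in Kupffer cells and 598 and 841 in HSC (3.88). Il34, the alternative ligand of that receptor, lay below the filter.

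Chemokines were split more evenly, with 9 of 22 higher in Kupffer cells and 5 in HSC (median 0.19). Ccl3, which attracts monocytes and lymphocytes, read 11087, 13874 and 14199 against 507 and 699, and Ccl24, an eosinophil chemokine, had 3.58. The monocyte chemokine genes Ccl2 and Ccl7 were higher in HSC, with Ccl7 at 4198 and 5999 against 1259, 1104 and 1658 (-1.86) and Ccl2 at 6079.6 and 9982 against 2743, 3223 and 3879.9 (log2 difference -1.24, SE 0.261, adjusted p = 0.0011). For Ccl2 the log2 difference was -0.89 without HSC replicate 2 and no longer passed, and LSEC had a mean of 12069.6. The neutrophil chemokine gene Cxcl1 read 806, 1479 and 1659.6 in Kupffer cells and 1027 and 2550.0 in HSC and overlapped (log2 difference -0.35, SE 0.377, adjusted p = 0.44). Ccl5 overlapped as well, at 1467, 3481 and 6234 and 1940.2 and 2306. Chemokine receptors were scarce, since 10 of 17 lay below the filter and 2 of 7 tested were higher in Kupffer cells, Ccrl2 at 3.21 and Cxcr3 at 1.15 (0.80 with the pooled median as pseudocount, not called).

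Immediate-early genes, which tissue dissociation can induce, were higher in Kupffer cells for 17 of 29 and in HSC for 4 (median 1.21). The AP-1 genes Fosb and Fos read 8779.7, 11185 and 11345 against 583 and 663 and 4496, 4459 and 5543 against 241 and 259, and Atf3, a stress-induced repressor, read 8305, 8968 and 9413 against 805 and 1269.7. HSC instead were higher for another AP-1 gene, Fosl1 (4445 and 4564 against 145, 266 and 279, log2 difference -3.90), and for Nr4a2, Myc and Hsp90aa1 at -1.94, -1.58 and -1.33. Interferon-stimulated genes were higher in Kupffer cells for 20 of 24 and in HSC for none (median 1.82), among them Oas2 at 4.01, Irf1 at 3.52 and Ifit2 at 3.37. Some of these genes varied within the Kupffer group. Kupffer array 1 was the lowest for Ifit2 (1564, 2829 and 3514), Tnf, Ccl4 (1132, 2692 and 3683) and Cxcl2 (4128, 7266 and 8459). The part of isolation in these levels was not tested.

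In HSC 13 of 22 tested stellate identity genes were higher and none was higher in Kupffer cells (median -1.51). Reln, the secreted glycoprotein reelin, read 4331 and 4597 in HSC and 178, 151 and 147 in Kupffer cells (log2 difference -4.24, SE 0.122, adjusted p = 3.2e-11). Des, the muscle intermediate filament desmin, read 2707 and 2932 against 178, 112 and 108 (log2 difference -3.77, SE 0.128, adjusted p = 1.2e-10). The platelet-derived growth factor receptor genes Pdgfrb and Pdgfra had differences of -3.96 and -3.96. Dcn, the proteoglycan decorin, read 11557 and 11402 against 893, 278 and 444, and Kupffer array 1 was the highest of its group. The 9 genes not called included Cygb, the cytoglobin of quiescent HSC, at 672 and 637 against 309, 319.5 and 313 (-0.89), the nerve growth factor receptor gene Ngfr at -0.94 and the hepatocyte growth factor gene Hgf, whose groups overlapped at 1196 and 1479 and 1286, 796 and 906 (log2 difference -0.42, SE 0.45, adjusted p = 0.44).

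Retinoid genes showed little net difference, with 2 of 21 higher in Kupffer cells, 3 higher in HSC and a median of -0.09. Dhrs3, which reduces retinal to retinol, was higher in Kupffer cells at 2925, 2928 and 2564 against 590.5 and 718, and the partner receptor gene Rxra was higher at 1.75. The HSC side held the retinoic acid receptor gene Rarb at -1.68, the retinal oxidising enzyme gene Aldh1a1 at -1.89 and Rbp4 at -2.03. Rbp4, the carrier of retinol in blood, read 1636 and 589 on the HSC arrays, 105 at day 7 and 108 at day 14 in longer culture and 14172 in hepatocytes. The same arrays carried hepatocyte transcripts, described further on, and their part in this difference was not tested. Rarb and Aldh1a1 instead rose in longer culture, to 4179 at day 7 and 2057 at day 14 and 6779 at day 7 and 4579 at day 14.

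Mesenchymal transcription factors were higher in HSC for 15 of 29 and in Kupffer cells for none (median -1.24). Foxf1, a factor of visceral mesenchyme, read 5257 and 5436 against 135, 101 and 147 (log2 difference -4.70, SE 0.15, adjusted p = 6.5e-11). Tead1, the DNA-binding partner of YAP, read 4014 and 5116 against 182, 214 and 212, and Tbx20 and Gata6 had differences of -3.70 and -2.83. The mean of Gata6 was 2262 in 1-day HSC and 2543 in hepatocytes, and the part of hepatocytes in its difference was not tested. The SRF coactivator gene Mrtfa (0.55) and Klf6 (0.43) were not called. Targets of YAP and SRF were higher in HSC for 15 of 18 (median -1.87), with Ccn1 at -4.53 and the tissue factor gene F3 at -4.08 beside Ankrd1 and Ccn2. Itgb5, a subunit of a vitronectin receptor, went the other way at 5908, 4843 and 5392 in Kupffer cells and 1581 and 1596 in HSC (1.70).

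Contractile genes were higher in HSC for 20 of 27 and in Kupffer cells for none (median -2.06). Tagln, which encodes SM22, read 6697 and 7734 against 167, 166 and 179.6 (log2 difference -4.84, SE 0.104, adjusted p = 6.7e-12), and the tropomyosin gene Tpm1 read 4876 and 6073 against 207, 158 and 160.0. Smtn and Vcl had differences of -2.65 and -4.03. The smooth muscle actin gene Actg2 passed narrowly at day 1 (341 and 408 against 161, 129 and 132, -1.03, -0.99 without Kupffer replicate 2 and -0.71 with the pooled median as pseudocount, neither called) and read 4906 at day 7 and 7193 at day 14 in longer culture. General actin regulators were read highly in both cells, with Actn1 at 6032, 6087 and 5529 and 8262 and 8488, Csrp1 at 7069.7, 5788 and 6364 and 8588 and 10367, and neither called (-0.51 and -0.56).

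Most matrix genes were higher in HSC, and type I collagen differed less than fibronectin. Collagen and matrix genes were higher in HSC for 24 of 34 and in Kupffer cells for none (median -2.26). The fibronectin gene Fn1 read 6201 and 6432 against 283, 172 and 224 (log2 difference -4.39, SE 0.152, adjusted p = 1.3e-10). The basement membrane linker gene Nid1 read 6646 and 5955 against 189, 153 and 146. Sparc read 11697 and 11552 against 533, 634 and 372. The LSEC mean of Sparc was 12802, and the hepatocyte mean of Fn1 was 6737. The type I collagen genes Col1a1 and Col1a2 read 935 and 905 and 711 and 674 on the HSC arrays against 362, 342 and 358 and 279, 209 and 264 (-1.20 and -1.22). Adding the pooled median instead of 83 took them to -0.98 and -0.95, short of a call. The collagen genes Col5a1 at -0.33 and Col6a2 at -0.37 were not called. In longer culture Col1a1 read 6807 at day 7 and 11780.1 at day 14 and Col1a2 4020.2 at day 7 and 9861 at day 14, log2 differences from day 1 of 3.17 and 3.04.

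Enzymes that process collagen were higher in HSC for 8 of 19 and in Kupffer cells for 2 (median -0.88). The cross-linking oxidase gene Lox read 5062 and 5068 against 86.2, 84.1 and 94.3 (log2 difference -4.91, SE 0.343, adjusted p = 7.8e-08), and Plod2, P3h2 and the collagen chaperone gene Serpinh1 had -3.61, -3.50 and -3.27. Kupffer cells were higher for Pcolce2, an enhancer of procollagen cleavage, at 6016, 5994 and 4467 against 854 and 793, and for the lysyl hydroxylase gene Plod1 at 1.38. Among proteases and inhibitors 12 of 23 were higher in HSC and 3 in Kupffer cells (median -1.46). The inhibitor genes Timp1 and Timp3 read 2794 and 3129 against 111, 179 and 138 and 12239.9 and 15280.2 against 279.8, 284 and 182, whereas Timp2 leaned to Kupffer cells without a call (0.94). The protease genes on the Kupffer side were Mmp27 at 3.56, Mmp9 at 1.43 and the urokinase gene Plau at 1.22.

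Guidance and vasoactive genes were called more often toward HSC. Axon guidance genes were higher in HSC for 19 of 28 and in Kupffer cells for 1, Plxnb2 (median -1.44), with the netrin receptor gene Unc5b at 2935 and 2212 against 189.9, 172 and 196 and the semaphorin gene Sema3d at -3.72. Sema6d was read highly in both cells, at 7464, 7894 and 8134 and 7056 and 7700.2 (log2 difference 0.09, SE 0.202, adjusted p = 0.73). Of 29 vasoactive and sphingolipid genes 15 were higher in HSC and 6 in Kupffer cells (median -1.21). S1pr3, a sphingosine phosphate receptor, read 6729 and 7995 against 177, 142 and 152 (log2 difference -4.95, SE 0.125, adjusted p = 1.5e-11), and Npr3, the natriuretic peptide clearance receptor, had -3.92. The endothelin receptor gene Ednrb had a difference of -3.86, with a LSEC mean of 8513. The Kupffer side held purinergic genes, with P2ry13, the ATP-degrading enzyme gene Entpd1 at 6860.3, 6012 and 6613 against 262 and 367, P2ry12 at 2.88 and P2ry6 at 2.69.

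Genes of prostanoid and leukotriene metabolism went both ways. Kupffer cells were higher for 8 of 20 genes and HSC for 2 (median 0.46). The prostaglandin D synthase gene Hpgds read 2609, 2013 and 2283 against 111 and 161 (log2 difference 3.45, SE 0.127, adjusted p = 2.2e-10), the thromboxane synthase gene Tbxas1 read 3482, 3039 and 2855 against 267 and 312, and Alox5ap, needed for leukotriene synthesis, had 3.28. HSC were higher for Ptgs2, the inducible cyclooxygenase, at 7876 and 7657 against 219, 184 and 238 (log2 difference -4.73, SE 0.118, adjusted p = 1.4e-11), and for the prostaglandin E synthase gene Ptges at -1.27. Adding the pooled median instead of 83 took Ptges to -0.94, short of a call. Hpgd, the enzyme that degrades prostaglandins, went opposite to Ptgs2, at 9172, 11102 and 10082 in Kupffer cells and 298 and 478 in HSC.

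Redox genes were divided in a like manner, 7 of 24 toward Kupffer cells and 8 toward HSC (median -0.15). The phagocyte oxidase genes Cybb, Rac2 and Ncf1 had differences of 3.59, 3.34 and 2.92, and Cybb read 12082, 13449 and 12878 against 658 and 1460.3. HSC were higher for the cystine transporter gene Slc7a11 at 3599.7 and 3308 against 117, 107 and 86 (log2 difference -4.25, SE 0.646, adjusted p = 8.5e-05), the quinone reductase gene Nqo1 at -3.36 and the sulfiredoxin gene Srxn1 at -2.26, all known targets of NRF2. These 3 genes were lower in longer culture, with Slc7a11 at 299.9 at day 7 and 472 at day 14. Among peroxidases Gpx1 and Gpx3 were higher in Kupffer cells (3.17 and 2.46) and Gpx8 in HSC.

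Of 27 cell cycle genes 4 were higher in Kupffer cells and 2 in HSC (median 0.33). The proliferation marker Mki67 read 477, 611 and 428 in Kupffer cells and 118 and 143 in 1-day HSC (log2 difference 1.45, SE 0.13, adjusted p = 7.6e-07), and 1146 at day 7 and 648 at day 14 in longer culture. The cyclin gene Ccnd2 was higher in HSC at 6013 and 6193 against 469.5, 397 and 406. Among 20 glycolytic genes 3 were higher on each side (median 0.10), the hexokinase genes Hk3 and Hk2 at 3.05 and 1.20 and the kinase gene Pdk1 at 1.09 (0.75 with the pooled median as pseudocount, not called) in Kupffer cells, and the transporter genes Slc16a1 and Slc2a1 at -3.14 and -1.89 and Pgk1 at -1.62 in HSC. Of 12 reference genes 9 were not called, with Actb at 18585, 18369.8 and 18712 and 18425 and 18150.4 and B2m at 11315, 12499.6 and 12456 and 12673 and 12361.

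Leukocyte forms of several protein families were set beside forms listed as broad or mesenchymal, in pairs chosen with earlier results of these data known. Of 30 paralog pairs with both genes on the array the leukocyte form was higher in Kupffer cells in 28, beside 11.7% of all tested genes. In 9 of these the broad or mesenchymal form was higher in HSC, beside 12.9% of all tested genes. The kindlins, which activate integrins, were an example, since Fermt3 read 2332, 2516 and 2013 in Kupffer cells and 294 and 304 in HSC (2.63), whereas Fermt2 had -4.97. Parvg and Parva, actin-binding partners of integrin-linked kinase, had 2.20 and -4.55. The WAVE complex subunit gene Nckap1l read 7371, 7189 and 6862 against 595 and 858 and its paralog Nckap1 read 102, 95.2 and 86.5 against 4007 and 4067 (3.18 and -4.54). The plastin genes Lcp1 and Pls3 had 2.48 and -3.69. In 6 pairs the form listed as broad or mesenchymal was higher in Kupffer cells. In 5 of them both forms were, for example Vav2 at 1.93 beside Vav1. The other pair ran against its listed labels, with Rasgrp3, listed as the leukocyte form, at -1.95 and Rasgrp2 at 2.92. Whether those 2 labels hold in liver cells was not tested. Arhgdib, a leukocyte form whose partner was not on the array, was not called (-0.38).

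Integrins went both ways. Of 29 integrin and linker genes 9 were higher in Kupffer cells and 10 in HSC (median -0.32). The leukocyte subunit genes Itgal, Itga4 and Itgb2 had 3.88, 3.12 and 2.85, and Itgal read 4693, 4239 and 3931 against 198 and 229. The fibronectin receptor gene Itga5 read 5958 and 5966 in HSC and 928, 866 and 1097 in Kupffer cells (log2 difference -2.54, SE 0.145, adjusted p = 1.3e-08), and the collagen receptor gene Itga1 read 617 and 1275 against 102, 79.1 and 73.2. The common subunit gene Itgb1 was not called, at 2853, 2613 and 2519 and 3864 and 4246 (-0.59), nor was Itgav at -0.32.

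Of 36 growth factor ligands 17 were higher in HSC and 3 in Kupffer cells (median -0.66). The activin subunit gene Inhba read 7026 and 7182 against 144, 152 and 145 (log2 difference -4.97, SE 0.161, adjusted p = 7.5e-11), and the EGF receptor ligand gene Ereg read 3926 and 5104 against 88.4, 103 and 97.8. Bmp10 read 2852 and 5207 on the HSC arrays, the lower on array 1, against 76.5, 70.5 and 73.9 (log2 difference -4.65, SE 0.175, adjusted p = 2.6e-10). The other groups had closely spaced low values of Bmp10, so this pooled SE understates the spread of the HSC arrays. Kupffer cells were higher for Pdgfc at 3134, 2827 and 2540.4 against 307 and 303, Igf1 at 5246, 5415 and 5557 against 923 and 1074 and Hbegf at 3138, 3118 and 3356 against 814 and 639.9. The TGF-beta isoform genes were unequal, since Tgfb1 was read in both cells at 4284, 3959.8 and 4197 and 3156 and 2717 (0.49, not called), whereas Tgfb2 and Tgfb3 were higher in HSC at -2.95 and -3.27. Of 38 receptors 16 were higher in HSC and 5 in Kupffer cells (median -0.83). The TGF-beta receptor gene Tgfbr2 was higher in Kupffer cells at 1.27. The EGF receptor gene Egfr read 3448 and 4024 in HSC and 170.3, 181 and 175 in Kupffer cells (log2 difference -3.88, SE 0.119, adjusted p = 5.2e-11). Its hepatocyte mean was 5569.

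Of 25 tested cytokine receptors 10 were higher in Kupffer cells and 4 in HSC (median 0.88). Csf1r, Il10ra and Csf2rb had 3.88, 3.49 and 2.70. HSC were higher for the oncostatin M receptor gene Osmr at 2283 and 3282 against 93.8, 98.9 and 81.6, the shared signal transducer gene Il6st at -2.05, and Tnfrsf11b, the decoy receptor osteoprotegerin, at 6126 and 6676 against 149, 162 and 159 (log2 difference -4.76, SE 0.09, adjusted p = 4e-12). Tnfrsf11a, the receptor RANK of the same system, was higher in Kupffer cells at 2.46.

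Ligands and receptors were then read as known pairs, chosen with earlier results of these data known. Of all tested genes 11.7% were called toward Kupffer cells and 12.9% toward HSC. Growth factor ligands and receptors on their own were called more often toward HSC, as given above. The pair counts therefore do not test a direction of signalling. Of 75 pairs listed 62 had both genes on the array, 46 had both tested and 22 had both called. In 7 the ligand was higher in HSC and the receptor in Kupffer cells, namely Csf1 with Csf1r, Tgfb2 and Tgfb3 with Tgfbr2, Bmp10 with Acvrl1, Thbs1 with Cd36 (whose call was narrow), Tnc with Itga9 and Mif with Cd74. Mif was read at a similar level in hepatocytes and LSEC, as given above. Acvrl1, the type I receptor ALK1, read 1279, 1236 and 1116 against 362 and 402, and Itga9 read 6919, 6942 and 6809.9 against 2970.2 and 3399. In 3 pairs the ligand was higher in Kupffer cells and the receptor in HSC, Pdgfc with Pdgfra, Igf1 with Igf1r and Hbegf with Egfr. Igf1r read 2351 and 2634 in HSC and 231, 263 and 236 in Kupffer cells, and Pdgfra read 3672 and 2868 against 146, 128 and 119. Both genes were higher in HSC in 9 pairs, such as Fgf2 with Fgfr1 and Ereg with Egfr, and both in Kupffer cells in 3, such as Il6 with Il6ra. Vcam1 with Itga4 and Icam1 with Itgb2 were the other Kupffer pairs. For Cxcl12 the receptor gene Cxcr4 was not called, at 422, 266 and 413 in Kupffer cells and 548 and 579.9 in HSC (-0.54). These are transcript levels, and signalling was not measured.

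**Figure D4:**
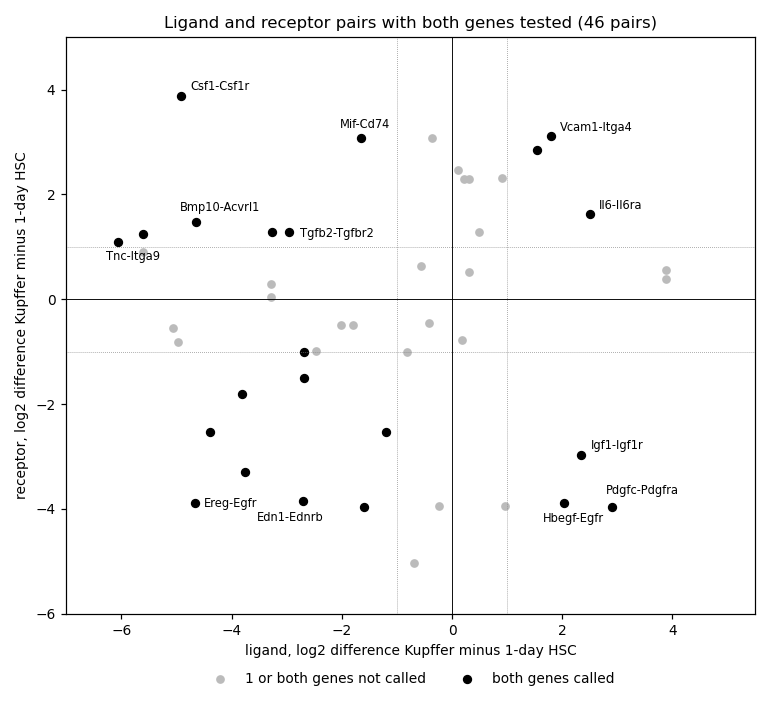
Log2 difference (Kupffer minus 1-day HSC) of the ligand on the horizontal axis and of its receptor on the vertical axis for the 46 pairs with both genes tested, with dotted lines at the minimum difference of 1. The 22 pairs with both genes called (black) include 7 in the upper left, where the ligand was higher in HSC and the receptor in Kupffer cells, and 3 in the lower right.

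Longer culture was set beside the pair. Of 12368 genes tested 683 (5.52%) were higher at 7 and 14 days than at day 1 and 528 (4.27%) were lower, with the spread taken from all groups and the later arrays, 1 per time, forming 1 group. Among the 1558 genes higher in 1-day HSC than in Kupffer cells 138 were higher in longer culture and 307 were lower. Of the 1409 Kupffer genes 126 were higher in longer culture and 50 were lower. Both comparisons share the day 1 arrays, so a chance deviation there moves them together. The counts by value that follow are of genes selected for a wide difference at day 1. The same share over all tested genes was not computed, so the counts do not measure persistence in culture. By value, 1375 of the HSC genes had both later arrays above every Kupffer array and 50 had both below. Those below included Rbp4, the cytochrome genes Cyp2e1 and Cyp2c29 and Serpina1c, which are hepatocyte genes, and Car8, whose LSEC mean was 6239. Cyp2e1 read 3339.7 and 1299 at day 1 and 64.3 at day 7 and 76.9 at day 14. Of the Kupffer genes 1329 had both later HSC arrays below every Kupffer array and 17 had both above. Those above included Hbegf, which read 4916 at day 7 and 5095 at day 14 against 3138, 3118 and 3356 in Kupffer cells, Gpx3 at 4110.2 at day 7 and 4074 at day 14 against 2930.1, 3009 and 2648, Dhrs3 at 3909 at day 7 and 4459 at day 14, Plac8 at 1992 at day 7 and 1633 at day 14 and Glipr1 at 2290.3 at day 7 and 3498 at day 14 against 1589, 1409 and 2005.

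Transcripts of other liver cells were present on both sides of the pair. Of 20 hepatocyte markers 13 were higher on the HSC arrays and none on the Kupffer arrays (median -1.24). Their summed intensity was 3786 to 7848 on the Kupffer arrays, 26599 and 14263 on the HSC arrays, 2824 and 2588 at 7 and 14 days, and 222834 in hepatocytes. Alb, the albumin gene, read 8855 and 6285 on the 1-day HSC arrays, 114 at day 7 and 113 at day 14, and 3374, 1027 and 2292 on the Kupffer arrays. The defining hepatocyte genes Tat and Cyp2f2 were not called, with Tat at 123 and 137 in HSC and 165, 112 and 126 in Kupffer cells against a hepatocyte mean of 11317. Cyp2f2 read 140.4 and 241 and 227, 154 and 175 against a hepatocyte mean of 13994. HSC array 1 lay above array 2 for all 13 called markers.

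Endothelial markers were also higher on the HSC arrays, for 13 of 24 genes, and on the Kupffer arrays for 1 (median -1.02). The sums were 16238 to 19368 on the Kupffer arrays, 31738 and 29820 on the HSC arrays, 17190 and 10942 at 7 and 14 days, and 122941 in LSEC. Esam and Emcn, junction and surface proteins of endothelium, had -3.08 and -3.13, whereas Stab2, a defining LSEC receptor, read 625 and 623 and 502, 413 and 362 against 6008 in LSEC and was not called. Clec4g was the 1 marker higher on the Kupffer arrays (1504, 1039 and 812 against 306 and 506), and it lost its call without HSC replicate 1, with a log2 difference of 0.99, and with the mean of its probe sets, at 0.67. Cdh5, the endothelial cadherin, was high on the arrays of both cells, at 10039.9, 9723 and 9141 and 6552 and 5427, and read 237 at day 7 and 422 at day 14 in longer culture. Among the 1558 HSC genes the hepatocyte mean was above the HSC mean for 221 and the LSEC mean for 332, and for 1057 both were below. Among the 1409 Kupffer genes these numbers were 88, 56 and 1271. The same numbers over all tested genes were not computed. The part of these cells in the differences was not tested.

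The called markers of other leukocytes were all higher on the Kupffer arrays. The B cell genes Cd79b and Cd22 read 1701, 954 and 1556 against 194 and 182 and 971, 539 and 619 against 128 and 142, while 7 of 11 B and plasma cell markers lay below the filter, and their sums were 2848 to 4467 on the Kupffer arrays and 1316 and 1270 on the HSC arrays. The NK cell receptor gene Klrk1 read 414, 475 and 392 against 35.1 and 35.7 and was the 1 called gene of the 4 tested T and NK cell markers, with 10 below the filter. Csf3r, the receptor for the neutrophil growth factor, and Plac8 were called of 2 tested neutrophil and monocyte genes, with 12 below the filter. Clec9a, a dendritic cell lectin, read 3066, 2797 and 2224 against 84 and 115 (log2 difference 3.92, SE 0.266, adjusted p = 5.9e-08), and 2 of 8 dendritic cell genes were called. The platelet gene Ppbp read 1396, 269 and 308 on the Kupffer arrays and 171 and 117 on the HSC arrays and rested on Kupffer array 1, since its log2 difference was 0.72 without that array and not called. The part of these cells in the Kupffer differences was not tested. Smooth muscle, mesothelial and portal fibroblast markers leaned to HSC, with 4 of 10 and 5 of 11 called, among them Rgs5 at -2.53, Dpt at -2.94 and Fbln2 at -2.33, while bile duct genes had 0 of 2 called.

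**Figure D5:**
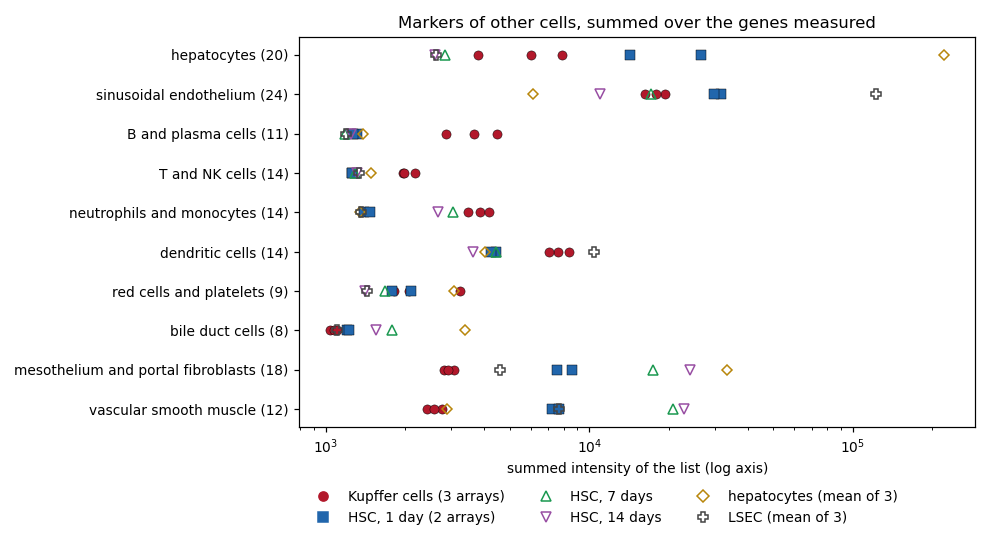
Summed intensity, on a log axis, of marker lists of other cells (number of genes in brackets) on each Kupffer array (circles) and HSC array (squares for day 1, triangles for 7 and 14 days), with the means of hepatocytes and LSEC. Hepatocyte markers summed to 26599 and 14263 on the 1-day HSC arrays and to 222834 in hepatocytes, and endothelial markers to 31738 and 29820 against 122941 in LSEC.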

How the data were processed

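The deposited table gave linear intensities of 25194 probe sets on 13 arrays, from 10.6 to 28854. Per the submitters' processing notes, Affymetrix Expression Console and MAS5 5.0 were used. The sources used here do not give which of them made these intensities or how arrays were normalized. No further scaling was applied to the arrays, whose medians ran from 216.5 to 232.9.

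The platform annotation gave 21181 probe sets 1 gene symbol, 1379 several and 2634 none. The probe set with the highest mean was kept for each of 19537 genes. Of the called genes 148 had several probe sets, which differed in sign for 6. A gene was tested where 2 or more arrays in the fit read above 224.5, the pooled median. The intensities plus 83, near the pooled 20th percentile (82.7), were put on the log2 scale from the values the authors deposited. Hepatocyte, LSEC, Kupffer and 1-day HSC arrays entered 1 fit in limma 3.58.1 (R 4.3.3; lmFit and eBayes, two-sided), with Benjamini-Hochberg adjusted p over all genes tested. A second fit held all 13 arrays. The procedure was tested on simulated data.

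The genes, lists and pairs were chosen with earlier results of these data known. Genes were named by rule: the 12 largest differences each way, the anchor genes, up to 4 called genes each way and 3 uncalled genes of highest mean per list, pair members, the 6 largest unlisted genes each way, and 5 each way whose later HSC arrays lay on the opposite side. Abcg3, Fhl1, Myl9, Rhoj and Tat lay outside it and were chosen after their values were seen. Alternatives were other pseudocounts, filters, scalings, probe-set rules, sets of arrays and variance models, a replicate block, and leaving out each array.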

Additional observations from a re-analysis of the deposited data

How the results depend on the processing

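Called genes numbered 1409 toward Kupffer cells and 1558 toward 1-day HSC. A minimum log2 difference of 2 left 546 and 441. The counts were 1648 and 1933 with a pseudocount of 1 and 1143 and 1179 with the pooled median, and other alternatives not listed here moved them less. Leaving out 1 array gave 1386 to 1421 toward Kupffer cells and 1424 to 1624 toward HSC. Without either HSC array 138 of the HSC genes failed the filter, which asks for 2 arrays. Genes whose means in hepatocytes and LSEC were both below numbered 1271 and 1057, a limit added after the data were seen. No named gene reversed under any alternative run. Of 300 named genes called 41 were not called under at least 1 alternative. Of these 18 were tested and lost the call, 17 of them within 0.3 of the minimum difference, and the other 23 fell below the filter of a fit and were called wherever tested. A call was gained by 21 uncalled genes. With the replicate number as a block the counts were 1417 and 1519. The deviations of same-numbered Kupffer and HSC arrays correlated at 0.1069 and 0.1079, and those of the other groups at -0.122 to 0.0795. The 2 HSC arrays deviate from their mean in mirror image, so these values cannot decide whether same-numbered arrays are paired. With 2 HSC arrays and single arrays at 7 and 14 days, the number of arrays limits every value, and for genes near the low end of the scale the size of a difference depends on the pseudocount.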
